A study of Mus musculus with 12 samples.

Results

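Mouse embryos that are homozygous for the acd allele of Acd and also lack p53 (Acdacd/acd, p53-/-, here double mutants) were set against embryos that lack p53 alone (p53-/-, here p53-null), both taken whole at E10.5. The comparison used every array whose title names either genotype, 3 arrays each, that is, 6 of the 12 arrays of the series; the other 6 hold wild-type (wt) and acd mutant (Acdacd/acd) embryos with p53. Both groups lack p53, so the comparison asks what homozygous acd changes in its absence. The labels call the replicates biological. The sources used here describe neither allele and give no litter, strain or number of embryos per array, and p-values measure the spread between these arrays. Of 45101 probe sets, 34945 were not controls and had 1 gene symbol. They read 18193 genes, and 13501 of these were bright enough to be tested.

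Acd encodes TPP1, a shelterin protein that recruits telomerase and helps to hide chromosome ends from the DNA damage response. When shelterin fails, p53 normally arrests or kills the affected cells, and cells without p53 can go on dividing with exposed ends. Interferon genes answer viral or misplaced nucleic acid, which is sensed in the cytosol and signalled through Irf and Stat factors to antiviral effectors.

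In double mutants Elmo3, an engulfment and cell motility protein, rose on all 3 arrays. It was the only gene of 13501 that passed the test (limma, Benjamini-Hochberg adjusted p = 4.61e-05, with 0.00741% of the genes tested called higher). No gene was called lower (0.0%). The rest of the contrast was uneven between arrays. Interferon effectors, antigen presentation and macrophage genes were high in replicates 1 and 2 and near the p53-null level in replicate 3, whereas heart muscle genes were low in replicate 3. At an unadjusted p under 0.05, 685 genes were higher (5.07%) and 766 lower (5.67%), and by mean alone 6480 were higher (48.0%) and 7021 lower (52.0%). For every other gene whose difference is given here the adjusted p in limma was between 0.183 and 0.877, so these are values that did not pass.

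The double mutant arrays differed from each other more than the p53-null arrays did. On the RMA log2 scale the 3 double mutant arrays had a median SD per gene of 0.21, against 0.10 in p53-null, 0.07 in acd and 0.06 in wt embryos. The SD exceeded 0.5 for 987 genes in double mutants (7.31%) and for 52 in p53-null embryos (0.385%). Among those 987 genes, replicate 1 was the array farthest from the other 2 for 531 genes, replicate 3 for 396 and replicate 2 for 60. Where replicate 3 was farthest it was mostly low, below the other 2 arrays for 346 genes and above them for 50. Pairs of double mutant arrays correlated at 0.967 to 0.986 over the tested genes, and pairs of p53-null arrays at 0.995 to 0.996. The fit shares 1 spread per gene across genotypes, which is too small for double mutants. With the 6 arrays alone 322 genes (2.39%) had an unadjusted p under 0.05, and with 1 weight per genotype 543 (4.02%), in place of 1451 (10.7%). The count went the other way with a weight per array (3258, or 24.1%), with sex as a term (4112, or 30.5%) and without double mutant replicate 3 (4322, or 32%). Among double mutants only replicate 1 had high Y-linked genes. The sex term there sets replicate 1 against replicates 2 and 3, so it cannot fully separate sex from that replicate.

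Each double mutant array was also read against the range of the 3 p53-null arrays. Replicate 1 lay more than 0.5 above that range for 1006 genes (7.45%) and below it for 1207 (8.94%). Replicate 2 lay above it for 401 genes (2.97%) and below it for 75 (0.556%). Replicate 3 lay above it for 5 genes (0.037%) and below it for 49 (0.363%). The acd arrays lay above the wt range for 11 to 33 genes and below it for 12 to 50. The 2 reference ranges are not alike, as the median SD was 0.06 in wt and 0.10 in p53-null. Sex differed too. The mean of 3 Y-linked genes was 8.09 in replicate 1 and between 8.07 and 8.31 in the p53-null arrays, but 3.44 and 3.30 in replicates 2 and 3. Xist, the RNA that silences an X chromosome, measured 11.91 and 11.81 in replicates 2 and 3 and at most 5.51 in the p53-null arrays and replicate 1. Of 430 X-linked genes tested, 43 were higher and 13 lower at an unadjusted p under 0.05 (5.07% and 5.67% of all genes). The part of sex in them was not tested.

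**Figure D1:**
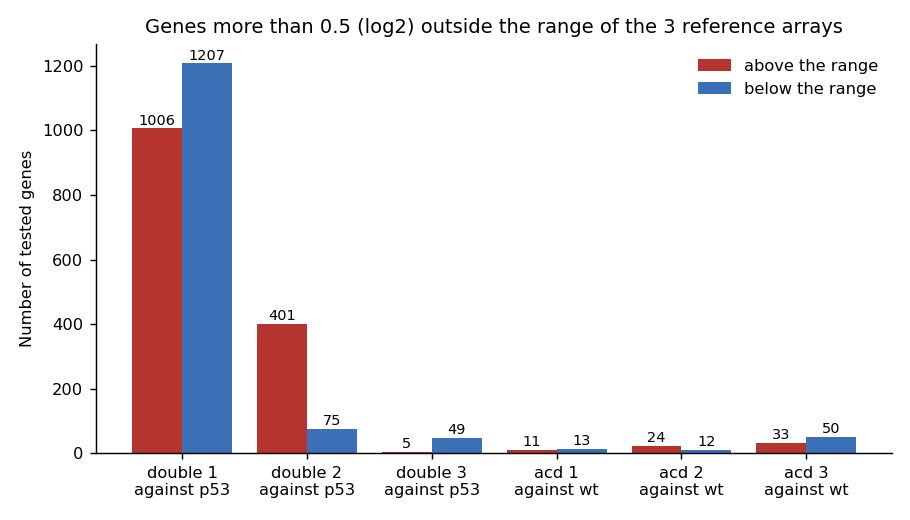
The bars count tested genes whose value lay more than 0.5 log2 above (red) or below (blue) the range of the 3 reference arrays, for each double mutant array against p53-null and each acd array against wt. Replicates 1 and 2 of the double mutants stand out with 1006 and 401 genes above the range, and replicate 3 has 5.

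Acd itself measured 8.84, 8.85 and 9.05 in the p53-null arrays and 8.44, 8.42 and 8.24 in the double mutants. Every double mutant array lay below every p53-null array. The difference was -0.55 ± 0.08 (SE, n = 3 each), or 0.683 of the p53-null level, with an adjusted p of 0.183 in limma. Without double mutant replicate 3 it was -0.49 (adjusted p = 0.00528), and without replicates 1 and 2 it was -0.68. Replicate 3 was left out after the split between these arrays was seen, so that adjusted p tests nothing. The labels do not say which part of Acd is altered, so where its 1 probe set lies relative to the change is not known. The p53 transcript was not analysed here.

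Elmo3 measured 5.16, 4.66 and 4.76 in the p53-null arrays and 7.96, 7.35 and 7.52 in the double mutants. All 3 double mutants were high, and the groups did not overlap. The part of sex or of the interferon level was not tested. The p53-null values lie around or below the array medians, the highest of which is 5.4, and may be background, so no fold is given. Elmo3 lies on chromosome 8, with 11 measured genes between it and Acd. The 10 measured genes on either side of Acd differed by -0.30 to 0.46, and 0 of the 20 passed. At an unadjusted p under 0.05 were 2 (10.7% of all genes), Tppp3 and Plekhg4. Tppp3, a tubulin-binding protein, differed by 0.46 ± 0.20 (0.17 without replicate 1 and 0.03 without replicates 1 and 2). The double mutant mean of Plekhg4, 5.32, was below the highest array median. Whether DNA linked to the acd allele takes part in the Elmo3 difference was not tested.

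**Figure D2:**
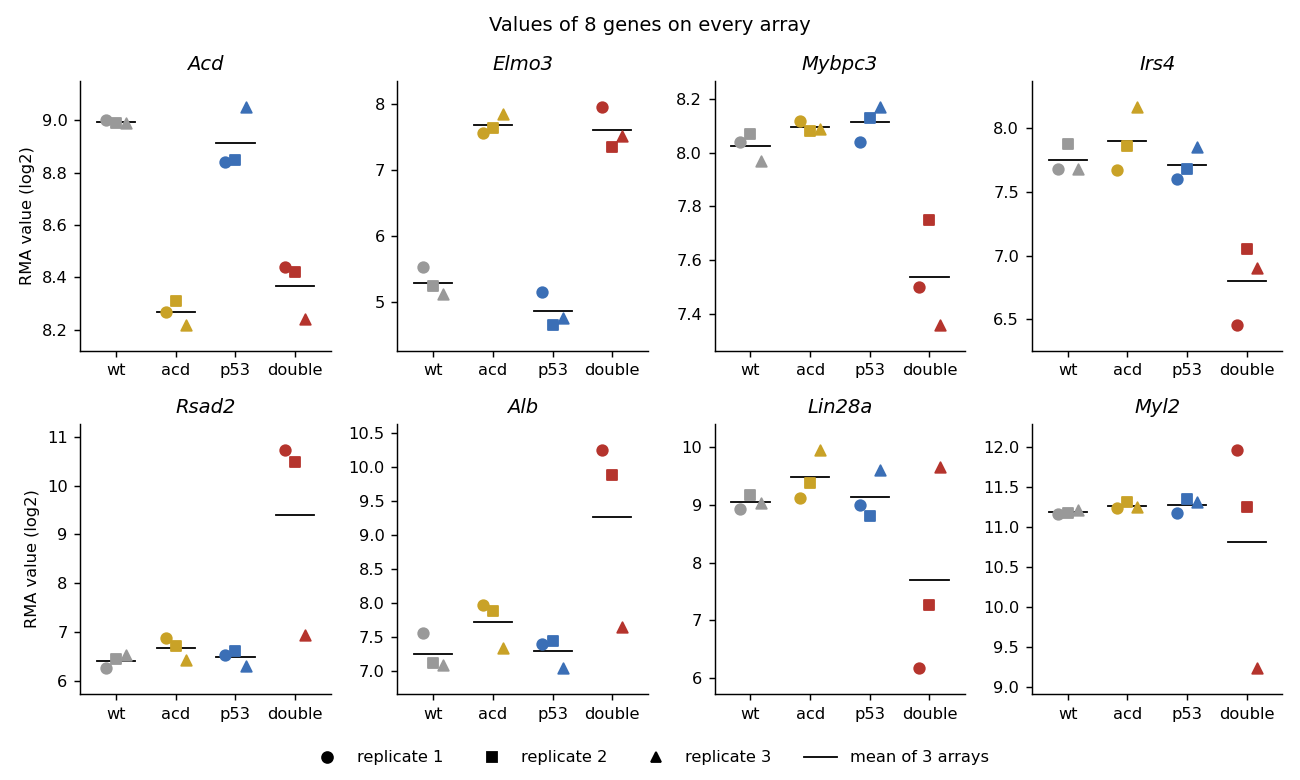
Points are RMA log2 values of 8 genes on each of the 12 arrays, with marker shape giving the replicate number and the line the mean of 3 arrays. Acd, Elmo3, Mybpc3 and Irs4 separate all 3 double mutants from the p53-null arrays. Rsad2 and Alb are high in replicates 1 and 2, Lin28a is low there, and Myl2 is low in replicate 3 alone.

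Every double mutant array was above every p53-null array for 444 genes (3.29%) and below for 676 (5.01%). Of these only Elmo3 passed, and the genes named next were those with the smallest p or the widest gaps. Pisd-ps3, a pseudogene whose signal can come from its parent gene, measured 8.18, 8.23 and 8.21 in p53-null and 9.38, 8.83 and 9.24 in double mutants (0.94 ± 0.17). Hspa1b, an inducible heat shock protein that can share probes with Hspa1a, measured 7.45, 7.47 and 6.97 against 8.33, 8.50 and 7.74 (0.89 ± 0.18, or 0.45 without replicates 1 and 2). Both genes were higher on each double mutant array than on each p53-null array, replicate 3 included.

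Other genes with the smallest p among those higher were Gm3912 (0.67 ± 0.13), Cfap126, a cilium protein (0.61 ± 0.11), Vamp7, a vesicle fusion protein (0.44 ± 0.09), Lpar4, a lysophosphatidic acid receptor (0.41 ± 0.09), Snap29, another fusion protein (0.37 ± 0.08), and Ednrb, the endothelin receptor of migrating neural crest (0.38 ± 0.09). In none of them did the 2 groups overlap. The 3 probe sets of Snap29 ran from 0.04 to 0.37. Vamp7 and Lpar4 are X-linked, and 2 of the 3 double mutants had Xist. Replicate 1, where Xist was low, had the highest value of both (9.57 and 9.33). In wt, Xist was low in replicate 1 and high in replicates 2 and 3. There Vamp7 measured 9.04, 9.27 and 9.28, and Lpar4 8.89, 8.93 and 8.78. The part of sex was not tested. Mrc1, a macrophage receptor, and Gimap9, a small GTPase of immune cells, were also higher in every double mutant, from p53-null values that may be background. Mrc1 measured 5.39, 5.50 and 5.11 in p53-null and 6.23, 6.67 and 5.71 in double mutants.

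Among lower genes, Mybpc3, the myosin-binding protein C of heart muscle, measured 8.04, 8.13 and 8.17 in p53-null and 7.50, 7.75 and 7.36 in double mutants (-0.58 ± 0.09, adjusted p = 0.272). It passed without double mutant replicate 2 (-0.68, adjusted p = 0.0238). Without replicate 3 it differed by -0.49 (adjusted p = 0.0072), a fit that follows the split seen in these data and tests nothing. Without replicates 1 and 2 it differed by -0.75. Irs4, an X-linked adaptor of insulin and growth factor receptors, measured 7.60, 7.68 and 7.85 against 6.46, 7.05 and 6.90 (-0.91 ± 0.16). Its second probe set differed by 0.04, so the 2 probe sets disagree.

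Bbc3, the apoptosis activator Puma and a known p53 target, measured 7.26, 7.08 and 7.33 in p53-null and 6.87, 6.86 and 6.99 in double mutants (-0.31 ± 0.08). The deubiquitinase Usp7 stood at 10.76, 10.78 and 10.77 against 10.14, 10.33 and 10.63 (-0.40 ± 0.10, or -0.14 without replicates 1 and 2). Both were lower in every double mutant, Usp7 by less in replicate 3. The 7 probe sets of Usp7 ran from -0.47 to -0.04. Trmt61a, a tRNA methyltransferase (-0.36 ± 0.08), Zbtb22, a zinc finger protein (-0.46 ± 0.12), Aste1, a nuclease-like protein (-0.34 ± 0.08), and Pcolce2, an enhancer of procollagen processing (-0.37 ± 0.09), likewise did not overlap between groups. Efcab7, a protein of the cilium, differed by -0.81 ± 0.24, and Rassf5, a Ras effector, by -0.38 ± 0.12. The second probe set of Rassf5 differed by -0.03, so its 2 probe sets disagree. Aldh1a3, which makes retinoic acid, was lower in each double mutant as well, with a double mutant mean below the highest array median. Aldh1a3 measured 5.88, 6.08 and 6.51 in p53-null and 5.03, 5.63 and 4.93 in double mutants. Its 3 probe sets fell by unequal amounts. The Y-linked Kdm5d follows the sex of the embryos.

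Interferon genes were high on 2 of the 3 double mutant arrays. Of 33 measured effectors 21 were tested, and 20 were higher (48.0% of all genes tested). Of these, 18 had an unadjusted p under 0.05 (5.07%) and 9 were without overlap between groups (3.29%). The median difference was 1.79, against -0.01 over all genes tested. In p53-null 11 of the 21 had a mean above the highest array median, so the size rests in part on values that may be background. Relative to the p53-null mean the list median stood at 2.85 and 2.61 in replicates 1 and 2 and at 0.05 in replicate 3. Replicate 1 was above every p53-null array for 19 of 21 effectors (42.3% of all genes), replicate 2 for 20 (29.8%) and replicate 3 for 9 (17.2%). The effectors were chosen with these results known, so the counts describe them and test nothing.

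The promoters of these genes in RefSeq (GRCm38.p6) were searched for the core of the interferon-stimulated response element. That core is 2 copies of GAAA with any 2 bases between them. The search took both strands, with overlaps allowed, in the 250 bases before each start site. The core lies in 2.98% of 32851 promoters and in 3.46% of genes. Of 24 effectors with a promoter entry 10 hold it (41.7%), as do 3 of 18 receptors and factors (16.7%), 1 of 10 class I presentation genes and 0 of 9 sensors. The windows below run 5′ to 3′ on the strand of the gene, with the core in capitals, which shows TTTC in place of GAAA where the match is on the other strand. They are shown for 5 effectors that were high in replicates 1 and 2 and for B2m. Xaf1 and Oasl2 were also high there and lack the core. Oas3 holds it and measured 3.94, 3.76 and 3.75 in double mutants, against 3.61, 3.94 and 3.70 in p53-null. The first is chr19:34640755-34640843, on the plus strand, from the promoter of Ifit1, and Rsad2 is chr12:26456533-26456602, Bst2 chr8:71537557-71537632, Oas1a chr5:120907526-120907575 and Irgm1 chr11:48871421-48871480, each on the minus strand. B2m is chr2:122147518-122147587 on the plus strand. A match is a description and not a shown binding site.
Ifit1: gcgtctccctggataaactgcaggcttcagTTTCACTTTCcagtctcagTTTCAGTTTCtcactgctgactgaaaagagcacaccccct
Rsad2: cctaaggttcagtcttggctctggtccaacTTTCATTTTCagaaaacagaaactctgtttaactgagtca
Bst2: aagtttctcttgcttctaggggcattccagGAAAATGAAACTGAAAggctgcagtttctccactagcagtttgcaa
Oas1a: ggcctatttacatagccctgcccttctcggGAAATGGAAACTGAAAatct
Irgm1: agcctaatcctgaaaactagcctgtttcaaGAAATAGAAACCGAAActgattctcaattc
B2m: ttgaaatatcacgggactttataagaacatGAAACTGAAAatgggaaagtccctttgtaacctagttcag

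Among the sensors, Ifih1, the receptor MDA5 for long double-stranded RNA, measured 5.54, 5.73 and 5.70 in p53-null and 9.18, 9.21 and 5.52 in double mutants. Its difference of 2.32 ± 0.73 rests on replicates 1 and 2. It was 3.54 without replicate 3 (adjusted p = 1.41e-08) and -0.14 without replicates 1 and 2. Replicate 3 is the array seen to be low for interferon genes, so an adjusted p without it describes that split and tests nothing. Ddx58, the RNA sensor RIG-I, measured 7.24 and 7.42 in replicates 1 and 2 and 4.86 to 4.99 in replicate 3 and the p53-null arrays. Cgas, the cytosolic DNA sensor, measured 5.63, 5.84 and 5.61 in p53-null and 6.64, 5.99 and 5.70 in double mutants (0.41 ± 0.18, or 0.15 without replicate 1 and 0.0054 without replicates 1 and 2). Its groups overlapped. Sting1, the adaptor downstream of Cgas, measured 6.40, 6.29 and 6.69 against 6.64, 6.47 and 6.44, also with overlap. Over the 9 sensors tested 6 were higher, 3 at an unadjusted p under 0.05 (5.07% of all genes), with a median of 0.07.

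Of the signalling genes, Irf9, which binds the response element with Stat2, measured 6.46, 6.58 and 6.65 in p53-null and 9.52, 9.22 and 6.85 in double mutants (1.97 ± 0.50, or 2.81 without replicate 3, adjusted p = 1.48e-08, and 0.29 without replicates 1 and 2). Each double mutant array was above each p53-null array, replicate 3 by less. Stat2, its partner, measured 4.60, 4.73 and 4.74 against 5.89, 5.57 and 4.74, and its p53-null level may be background. Irf7, an amplifier of interferon production, did not pass the filter, with 6.67 and 6.11 in replicates 1 and 2 and at most 3.86 on the other 10 arrays. Ifnb1, interferon beta itself, stayed dim throughout, at 4.44, 3.95 and 3.96 in double mutants and 4.02, 3.92 and 4.15 in p53-null. Of 15 tested receptors and factors 11 were higher, 2 at an unadjusted p under 0.05 (5.07% of all genes), with a median of 0.13.

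The effectors showed the same division. Rsad2, the antiviral enzyme viperin, measured 6.54, 6.62 and 6.30 in p53-null and 10.72, 10.49 and 6.95 in double mutants. Replicate 3 lay just above the p53-null arrays and far below the other double mutants. The difference was 2.90 ± 0.73, or 7.48-fold, and it was 4.12 without replicate 3 (adjusted p = 1.48e-08) and 0.46 without replicates 1 and 2. Ifitm3, which blocks viral entry, measured 8.34, 8.50 and 8.67 against 12.39, 11.95 and 8.78 (2.54 ± 0.68, or 3.67 and 0.28 in the same 2 fits). Oas1a, which activates RNase L, measured 6.02, 5.98 and 6.22 against 10.07, 9.13 and 6.26 (2.41 ± 0.68, or 3.53 and 0.19). Both were high in replicates 1 and 2, and replicate 3 exceeded the highest p53-null array by little. Bst2, the virion tether tetherin, measured 5.91, 6.48 and 6.34 against 11.27, 10.31 and 6.29 (3.05 ± 0.91, or 4.55 and 0.05), and here replicate 3 lay inside the p53-null range. Eif2ak2, the kinase PKR, measured 7.19, 6.94 and 7.05 against 8.51, 9.17 and 7.05 (1.18 ± 0.38, or 1.78 and -0.01).

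Several effectors had p53-null values so dim that they may be background. Rtp4, a chaperone of receptors that interferon induces, measured 4.29, 5.01 and 4.47 in p53-null and 10.89, 10.19 and 5.94 in double mutants. It was the only tested effector in which replicate 3 exceeded the p53-null arrays by more than 0.5. Usp18, which removes ISG15 from proteins, measured 3.89, 4.03 and 4.0 against 10.68, 10.01 and 4.30. Irgm1, a GTPase that acts on membranes of engulfed microbes, measured 9.88 and 9.31 in replicates 1 and 2 and 5.37 in replicate 3. Gbp7 and Parp12, which are also known as interferon genes but are not in the list, measured 9.02 and 9.79 in replicate 1 and 5.31 and 5.01 in replicate 3. A further 12 effectors failed the filter, which asks for 3 bright arrays and so leaves out genes bright in only 2. Ifit1, which binds viral RNA, measured 9.14, 8.87 and 3.78 in double mutants and 3.91, 3.71 and 3.57 in p53-null. Iigp1 measured 8.62, 8.47 and 4.46, Xaf1 9.09, 8.82 and 4.20, and Oasl2 8.55, 8.10 and 3.75. Of all 33 effectors, 22 were more than 1 above all 10 other arrays in both replicates 1 and 2, as were 80 of all 18193 genes read.

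**Figure D3:**
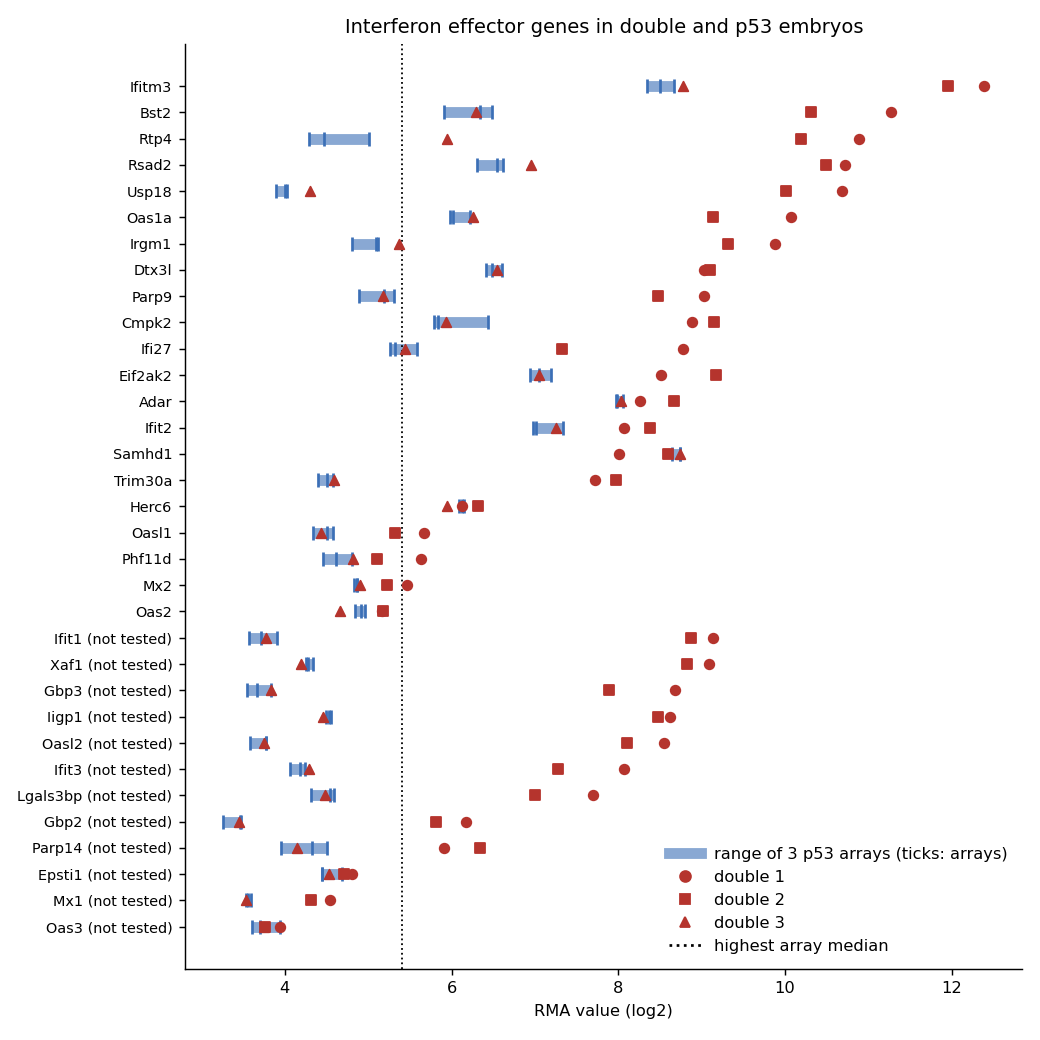
Each row is an interferon effector gene, with the range of the 3 p53-null arrays as a blue bar, blue ticks for its arrays, and the 3 double mutants as red markers on the RMA log2 scale; the dotted line is the highest array median, 5.4. Replicates 1 and 2 lie far to the right for most genes, Ifit1, Xaf1 and Oasl2 among those not tested, while replicate 3 lies in or near the blue bars.

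Class I antigen presentation genes were higher in double mutants for 11 of 11 members. Of these, 8 had an unadjusted p under 0.05 (5.07% of all genes) and 0 were without overlap (3.29%). The median was 0.59, and 6 of the 11 had a p53-null mean above the highest array median. B2m, the shared light chain, measured 10.37 ± 0.13 (SD, n = 3) in p53-null and 11.93, 11.34 and 10.43 in double mutants (0.86 ± 0.27, or 0.51 without replicate 1 and 0.05 without replicates 1 and 2). Tapbp, which loads peptides, measured 6.92, 7.11 and 6.92 against 9.22, 8.59 and 6.98 (1.28 ± 0.40, or -0.01). H2-K1, a heavy chain with near-identical relatives, measured 8.66, 8.54 and 8.89 against 10.47, 9.56 and 8.79 (0.91 ± 0.30, or 0.48 without replicate 1 and 0.09 without replicates 1 and 2). In all 3 the third double mutant lay inside the p53-null range. Probe sets ran from 0.48 to 1.28 for Tapbp and from 0.20 to 0.91 for H2-K1.

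Macrophage markers were higher for 16 of 16 tested members of 20 measured, 7 at an unadjusted p under 0.05 (5.07% of all genes). The median was 0.64, and 9 of the 16 had a p53-null mean above the highest array median. Per array the list median stood at 1.04, 0.86 and -0.19 relative to p53-null. In RNA of whole embryos, more cells of a type and more RNA per cell cannot be told apart. The mean log2 value over the list was 7.21, 6.80 and 5.70 in double mutants and 5.76 to 6.08 in p53-null. Some other lists also stood higher in replicates 1 and 2 than in replicate 3. Primitive erythroid genes had means of 10.29, 9.95 and 9.09 in double mutants, and matrix genes 9.90, 9.99 and 9.49. The part of macrophages in the interferon values was not tested. C1qc, a subunit of complement C1q, measured 5.60, 5.64 and 5.20 against 7.52, 6.97 and 5.28 (1.11 ± 0.42, or 1.77 without replicate 3, 0.65 without replicate 1 and -0.20 without replicates 1 and 2). Tyrobp, a signalling adaptor of myeloid cells, measured 6.53, 6.53 and 6.06 against 8.60, 7.51 and 5.94 (0.98 ± 0.48, or 1.68, 0.35 and -0.43 in the same fits). Both were high in replicates 1 and 2 alone.

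Primitive erythroid genes were higher for 15 of 15 members (48.0% of all genes), 0 at an unadjusted p under 0.05 (5.07%). The median was 0.45, with array medians of 1.02, 0.69 and -0.29. The level varied in embryos with p53 too. The mean over the list was 10.29, 9.95 and 9.09 in double mutants, 9.29, 10.17 and 9.55 in acd, and 9.54, 9.36 and 9.82 in wt. Alas2, the first enzyme of haem synthesis in red cells, measured 8.35, 8.63 and 7.98 in p53-null and 9.76, 9.11 and 8.01 in double mutants (0.64 ± 0.40, or 0.24 without replicate 1 and -0.31 without replicates 1 and 2). Liver genes had 6 of 9 tested members higher, 3 at an unadjusted p under 0.05 (5.07% of all genes). Alb, serum albumin, measured 7.39, 7.43 and 7.04 against 10.25, 9.89 and 7.64 (1.98 ± 0.51, or 3.93-fold, 2.79 without replicate 3, and 0.35 without replicates 1 and 2). All 3 double mutants were above the p53-null arrays, replicates 1 and 2 by far more. Ttr, a thyroxine carrier of yolk sac and liver, measured 9.11, 10.99 and 8.59 in p53-null and 11.80 and 9.27 in double mutant replicates 1 and 3. The brightest p53-null array reached the level of double mutant replicate 2.

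Genes known for their decline during early organ formation were low where the interferon genes were high. Of 11 tested members 8 were lower, 4 at an unadjusted p under 0.05 (5.67% of all genes). The median was -0.36, with array medians of -0.94, -0.30 and 0.06. Lin28a, the RNA-binding protein that blocks let-7, measured 8.99, 8.80 and 9.60 in p53-null and 6.18, 7.27 and 9.66 in double mutants (-1.43 ± 0.64, or -2.41 without replicate 3, adjusted p = 0.00168, -0.67 without replicate 1, and 0.53 without replicates 1 and 2). Replicate 3 was above every p53-null array. Trim71, a let-7 target, measured 9.81, 9.90 and 10.01 against 7.74, 8.64 and 10.23 (-1.03 ± 0.44, or -1.72, -0.47 and 0.33 in the same fits), Sall4, a factor of pluripotent and progenitor cells, -1.0 ± 0.39 (-1.61, -0.54 and 0.21), and Igf2bp1, an mRNA-binding protein, -0.56 ± 0.25 (-0.87, -0.17 and 0.06). Replicate 1 had the lowest value of each.

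Cell cycle and repair genes had smaller values, with the lowest list medians in replicate 1. Checkpoint and repair genes were lower for 29 of 32, 9 at an unadjusted p under 0.05 (5.67% of all genes) and 3 without overlap (5.01%). The median was -0.25, with array medians of -0.51, -0.17 and 0.03. Hus1, a clamp of the damage checkpoint, measured 8.98, 9.03 and 9.07 in p53-null and 8.19, 8.54 and 8.99 in double mutants (-0.45 ± 0.16, or -0.26 without replicate 1 and -0.03 without replicates 1 and 2). Atrip, the partner of the kinase ATR, differed by -0.37 ± 0.14 (-0.06 without replicates 1 and 2). DNA replication genes were lower for 27 of 33, 1 at an unadjusted p under 0.05, a smaller share than the 5.67% of all genes (median -0.16), and genes of G2 and mitosis for 16 of 21, 3 at that level (median -0.16). Pold1, a DNA polymerase subunit, differed by -0.22 ± 0.10, Cdc20, an activator of anaphase, -0.26 ± 0.11, and the mitotic kinase Aurkb -0.26 ± 0.10 (-0.12, -0.11 and -0.14 without replicate 1). Replicate 1 was the lowest of the 6 arrays for all 3 genes.

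Shelterin and telomerase genes other than Acd were mixed. Of 17, Acd included, 12 were lower, 3 at an unadjusted p under 0.05 (5.67% of all genes) and 3 without overlap (5.01%). The median was -0.13. The telomerase RNA-binding proteins Gar1 and Dkc1 were low in replicates 1 and 2. Gar1 measured 11.11, 11.15 and 11.18 in p53-null and 10.47, 10.75 and 11.07 in double mutants (-0.38 ± 0.12, or -0.08 without replicates 1 and 2). Dkc1 differed by -0.30 ± 0.13 (0.05 without replicates 1 and 2). Terf1, which binds the telomere repeat, measured 8.64, 8.69 and 8.89 against 8.80, 8.84 and 8.89, and its groups overlapped.

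**Figure D4:**
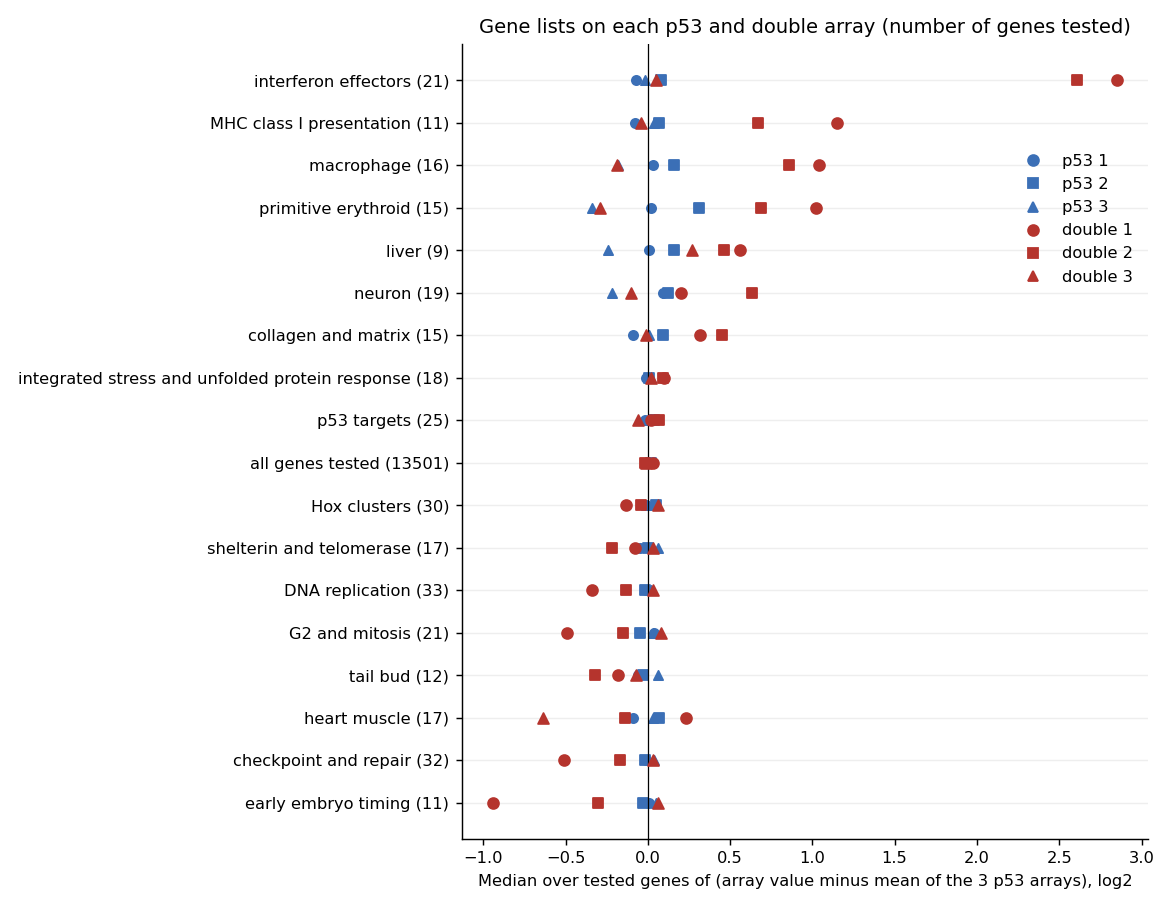
For each gene list, with the number of genes tested, the points give the median over its genes of an array's value minus the mean of the 3 p53-null arrays, on the log2 scale, for p53-null arrays (blue) and double mutants (red). Interferon effectors reach 2.85 and 2.61 in replicates 1 and 2 and 0.05 in replicate 3, early embryo timing genes stand at -0.94 in replicate 1, and heart muscle genes at -0.64 in replicate 3.

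Heart muscle genes set replicate 3 apart from the others. Of 17 tested, 15 had a lower mean, 4 at an unadjusted p under 0.05 (5.67% of all genes) and 2 without overlap (5.01%). The median was -0.21. The array medians were 0.23, -0.14 and -0.64, so replicate 3 carried most of the difference. Replicate 3 was below every p53-null array for 14 of the 17 (25.6% of all genes), replicate 2 for 8 (33.9%) and replicate 1 for 5 (38.4%). Myl2, the light chain of ventricular myosin, measured 11.18, 11.35 and 11.31 in p53-null and 11.96, 11.25 and 9.24 in double mutants (-0.46 ± 0.48). The difference was -2.04 without replicates 1 and 2 and 0.32 without replicate 3. Nppa, the atrial natriuretic peptide, measured 8.86, 9.51 and 9.22 against 10.34, 9.28 and 7.34 (-0.21 ± 0.53, or -1.86 and 0.61). Both were highest in replicate 1 and lowest in replicate 3. Myh6, the alpha myosin heavy chain, differed from them in that every double mutant was low, at 8.07, 9.26 and 9.24 against 9.52, 9.67 and 9.61 (-0.74 ± 0.25, or -0.35 without replicate 1 and -0.36 without replicates 1 and 2). Its second probe set differed by 0.13, so the 2 probe sets disagree. Myh7, the beta heavy chain, measured 9.68, 9.74 and 9.60 against 8.82, 9.87 and 8.44 (-0.63 ± 0.27, or -1.05 without replicate 2, adjusted p = 0.0261, -0.33 without replicate 3, adjusted p = 0.334, and -0.01 with array weights).

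The 49 genes (0.363% of all genes) that lay more than 0.5 below the p53-null range in replicate 3 included 8 of the 17 heart muscle genes. For 30 of the 49 neither replicate 1 nor replicate 2 was below that range. These names were chosen after their values were seen. Nppb, the ventricular natriuretic peptide, measured 7.50, 7.63 and 7.34 in p53-null and 8.36, 7.35 and 5.75 in double mutants, and Pln, which restrains the calcium pump of heart muscle, 6.52, 6.79 and 6.67 against 7.50, 6.91 and 4.95. Also among the 49 were regulators known from the forebrain. Wnt8b, a signal of the cortical midline, measured 7.15, 7.30 and 7.17 against 7.51, 7.40 and 5.69, and Fezf2, a factor of cortical projection neurons, 6.33, 6.63 and 6.36 against 6.54, 6.47 and 5.07. Emx2 and Lhx2, which pattern the cortex, measured 7.12 and 8.13 in replicate 3, against at least 7.71 and 8.98 in the p53-null arrays. The 5 genes above the range were Elmo3, Pisd-ps3, Rtp4, Xist and Kdm6a, of which the last is X-linked.

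**Figure D5:**
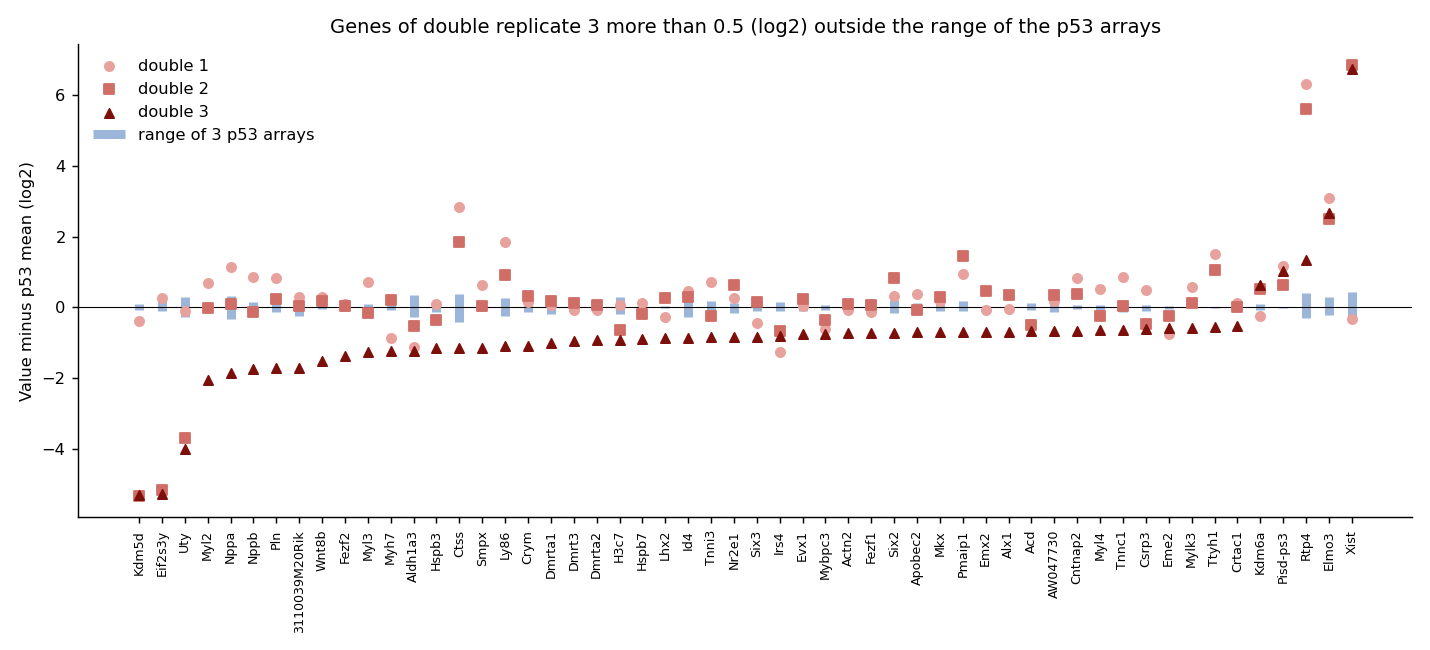
All genes for which double mutant replicate 3 lay more than 0.5 log2 outside the p53-null range are shown in order of its difference from the p53-null mean, with the p53-null range as a blue bar and the 3 double mutants as red markers. Of the 49 genes on the low side, Myl2, Nppa and Nppb follow the 3 Y-linked genes, while replicates 1 and 2 lie in or above the bars for most.

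Tail bud genes were lower for 10 of 12, 5 at an unadjusted p under 0.05 (5.67% of all genes) and 3 without overlap (5.01%). The median was -0.17. All 3 arrays had a median below 0, at -0.18, -0.32 and -0.07. Cdx2, a posterior patterning factor, measured 5.88, 5.78 and 6.36 in p53-null and 5.25, 5.62 and 5.68 in double mutants (-0.49 ± 0.17). Cyp26a1, which clears retinoic acid, measured 7.55, 7.65 and 7.91 against 7.28, 7.05 and 7.62 (-0.39 ± 0.13, or -0.25 without replicate 2), and Fgf8, a growth factor of tail and limb, 7.37, 7.35 and 7.51 against 7.19, 6.82 and 7.20 (-0.34 ± 0.12, or -0.21 without replicate 2). Cdx2 and Fgf8 did not overlap between groups. The posterior Hox genes of paralog groups 9 to 13 were lower for 9 of 12 with a median of -0.20, and here the 3 arrays stood close together, at -0.16, -0.12 and -0.17. Hoxa11 measured 7.65, 7.49 and 7.56 against 7.30, 7.44 and 7.37 (-0.20 ± 0.09), and Hoxd9 8.91, 9.08 and 9.12 against 8.45, 8.50 and 8.96 (-0.40 ± 0.13, or -0.08 without replicates 1 and 2). Groups 1 to 4 had a median of 0.01, but their array medians were spread, at -0.30, 0.0 and 0.25. Groups 5 to 8 had a median of -0.01, with array medians of -0.02, 0.04 and 0.09.

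Matrix genes were higher for 11 of 15, 4 at an unadjusted p under 0.05 (5.07% of all genes). The median was 0.30, with array medians of 0.32, 0.45 and -0.01. Bgn, the X-linked proteoglycan biglycan, measured 8.33, 8.50 and 8.44 in p53-null and 9.37, 9.19 and 8.60 in double mutants (0.63 ± 0.16, or 0.18 without replicates 1 and 2). Mgp, an inhibitor of calcification, measured 6.17, 6.23 and 6.03 against 7.80, 6.97 and 6.14 (0.83 ± 0.30, or 0.41 without replicate 1). Neuron genes were higher for 15 of 19, 2 at an unadjusted p under 0.05 (5.07% of all genes). The median was 0.29, with array medians of 0.20, 0.63 and -0.10. Stmn2, a microtubule regulator of growing axons, measured 10.51, 10.66 and 10.13 against 11.48, 11.30 and 10.33 (0.60 ± 0.26, or 0.38 without replicate 1 and -0.11 without replicates 1 and 2). In both lists replicate 2 had the highest array median and replicate 3 lay at or below the p53-null level.

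Genes that p53 activates were spread evenly around 0, as 14 of 25 tested members were higher and 11 lower, with a median of 0.01 and array medians of 0.02, 0.07 and -0.06. Of these, 1 was higher and 3 lower at an unadjusted p under 0.05 (5.07% and 5.67% of all genes). Cdkn1a, the cell cycle inhibitor p21, measured 7.92, 8.04 and 8.02 in p53-null and 8.06, 8.07 and 8.06 in double mutants (0.07 ± 0.19). The groups did not overlap, but the gap is a few hundredths, and in embryos with p53 acd minus wt was 0.54. Phlda3, an Akt inhibitor, measured 7.08, 6.93 and 7.16 against 7.23, 7.07 and 7.09, and Mdm2, which degrades p53, 8.97, 8.82 and 8.93 against 8.97, 8.93 and 8.94. Pmaip1, the apoptosis activator Noxa, varied most between arrays, at 6.33, 6.63 and 6.35 against 7.38, 7.90 and 5.75. The difference was 0.57 ± 0.41, or 1.20 without replicate 3 (adjusted p = 0.00491 in limma) and -0.69 without replicates 1 and 2.

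Genes of the unfolded protein and integrated stress responses were higher for 11 of 18 (48.0% of all genes), with a median of 0.09. Of these, 3 had an unadjusted p under 0.05 (5.07%) and 4 were without overlap (3.29%). Dnajb9, a chaperone of the endoplasmic reticulum, measured 8.94, 9.01 and 9.0 in p53-null and 9.89, 9.43 and 9.04 in double mutants (0.47 ± 0.16, or 0.25 without replicate 1 and 0.05 without replicates 1 and 2). Sdf2l1, another, measured 9.47, 9.37 and 9.45 against 10.47, 9.63 and 9.67 (0.49 ± 0.18, or 0.22 without replicate 1), and Ppp1r15a, which ends the translation block, 0.30 ± 0.10 (0.19 without replicate 1). In all 3 genes replicate 1 was the highest array.

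The same contrast in embryos with p53, acd minus wt, shares no array with this one. In it Elmo3 and Acd passed (0.0148% of genes), and 239 genes had an unadjusted p under 0.05 (1.77%). The interaction, which tests whether the acd difference depends on p53, passed for 0 genes in limma, and 531 (3.93%) were under an unadjusted p of 0.05. The mean of the 3 Y-linked genes was 8.21, 3.72 and 3.26 in wt and between 8.11 and 8.24 in acd arrays. Sex therefore runs in opposite directions in the 2 contrasts and adds up in the interaction. Side by side, double mutant minus p53-null and acd minus wt were -0.58 and 0.07 for Mybpc3, -0.91 and 0.15 for Irs4, 2.90 and 0.26 for Rsad2, 1.98 and 0.47 for Alb, and -1.43 and 0.43 for Lin28a. The effector median was 1.79 and 0.11. Hoxa11 and Hoxd9 were lower in both, at -0.20 and -0.25 and at -0.40 and -0.31.

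Which genes passed turned on the arrays kept. Without double mutant replicate 3, 922 genes passed higher (6.83%) and 834 lower (6.18%), and the interaction passed for 439 (3.25%). Leaving out replicate 3 follows the split seen in these same data, so those counts describe it and test nothing. Without replicates 1 and 2, 1 double mutant array is left, assumed to vary like the other genotypes. The difference was then -0.68 for Acd, -0.75 for Mybpc3, -1.24 for Myh7, -2.04 for Myl2 and -1.86 for Nppa. With a weight per array 94 genes passed higher (0.696%) and 28 lower (0.207%). Without replicate 1 Elmo3 alone passed. Without replicate 2 Mybpc3 and Myh7 passed in addition (0.0148%), as did Psmc3, a proteasome subunit, without p53-null replicate 3 (0.77, adjusted p = 0.0306). Elmo3 passed in each of these fits.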

How the data were processed

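RNA of whole embryos was measured on Affymetrix arrays, 1 per sample. The deposited values are log2 expression values, which the authors made from the scanner files with justRMA (background correction, quantile normalization, probe summary), per the series' design text; RMA is also in the submitters' processing notes. RMA equalises the distributions of the arrays, so a change in total RNA cannot be seen. The number of arrays limits the precision.

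Probe sets were named through the platform annotation, where 932 had several symbols and 9160 besides controls were unlisted; 34741 matched RefSeq genes of GRCm38.p6, which changed 0 symbols. A gene was read by its brightest probe set on average, and tested if 3 or more arrays had it above their 40th percentile. Of the genes tested, 2 passed this filter through the 3 double mutant arrays alone. limma 3.58.1 in R 4.3.3 fitted a mean per genotype to all 12 arrays, leaving 8 residual degrees of freedom, by empirical Bayes, with 2-sided tests and Benjamini-Hochberg adjustment at 0.05. It was tested on simulated data. Where a group mean of a gene lay below 5.4, the highest array median, the results give no size. List medians include such genes.

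Genes named were Acd, those that passed, the 12 smallest p and the 8 widest gaps in each direction, the 12 largest SDs among double mutants, up to 3 members of each of 39 lists and 10 neighbours of Acd on each side. Other list members, the genes below the filter and those singled out for replicate 3 were chosen after their values were seen, and so was the promoter motif. The members and lists were chosen with earlier results of these data known. Same-numbered double mutant and p53-null arrays deviated from their group means with correlations of -0.15, 0.21 and 0.21, so the numbers do not pair them. Scanner files and the p53 transcript were not analysed here.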

Additional observations from a re-analysis of the deposited data

How the results depend on the processing

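Elmo3 passed under all 26 alternatives, with an adjusted p of 9.5e-06 to 0.014. Over single arrays left out, the count of higher genes ran from 1 to 922, of lower genes from 0 to 834 and of interaction calls from 0 to 439, and Acd from -0.59 to -0.48. With array weights 94 genes were higher (0.696%), 28 lower (0.207%), and Acd passed (-0.53, adjusted p = 0.0138); double mutant replicate 1 then weighed 0.068 and replicate 3 0.246. With sex as a term 1 gene was lower and 1 passed the interaction, Gtf3c2 both times, Myl2 measured 0.12 and Nppa 0.47. The sex term is estimated in wt and double mutants alone. Over single arrays left out Myl2 ran from -1.04 to 0.32 and Nppa from -0.89 to 0.61. With the replicate block Acd measured -0.55, and 1 gene was higher and 0 lower; it changed no call.

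Without double mutant replicates 1 and 2, 27 genes were lower, the interaction passed for 25 and Acd measured -0.68. The sign then turned for 21 genes. These were Ifih1 (-0.14), Tapbp (-0.0069), Eif2ak2 (-0.0068), C1qa (-0.24, from a p53-null level that may be background), C1qc (-0.20), Tyrobp (-0.43), Ttr (-0.29), Alas2 (-0.31), Nfe2 (-0.38), Lin28a (0.53), Trim71 (0.33), Sall4 (0.21), Igf2bp1 (0.061), Pold1 (0.024), Dkc1 (0.052), Mgp (-0.0060), Stmn2 (-0.11), Stmn3 (-0.36), Tubb3 (-0.15), Pmaip1 (-0.69) and Dct (-0.14). Of 2201 gene values under alternatives, 2069 kept direction and side of the threshold and 107 newly passed, 74 of them without double mutant replicate 3.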

Other observations

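Of the genes too dim to be tested, 22 were more than 1 above all 10 other arrays in both double mutant replicates 1 and 2, and 9 of these were interferon effectors. The names that follow were chosen after their values were seen. S100a8, a calcium-binding protein of neutrophils, measured 7.73, 6.17 and 4.09 in the double mutants and 3.85, 4.10 and 3.62 in p53-null. Cxcl10, a chemokine that interferon induces, measured 6.76, 6.15 and 3.47 against 3.95, 3.92 and 3.75. Of 8 measured neutrophil genes 2 were tested, both with a higher mean and 0 at an unadjusted p under 0.05. Mpo, a granule enzyme of myeloid cells, measured 5.93, 6.14 and 5.66 in p53-null and 6.92, 6.73 and 5.90 in double mutants, and S100a9, the partner of S100a8, 3.73, 3.49 and 3.54 against 6.22, 4.99 and 3.58. The granule genes Elane, Camp, Ltf and Mmp8 stayed below 4.5 on all 6 arrays.

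Among secreted factors, Igfbp3, which binds insulin-like growth factors, measured 8.87, 8.82 and 8.90 in p53-null and 9.58, 9.37 and 8.93 in double mutants (0.43 ± 0.13, or 0.28 without replicate 1 and 0.07 without replicates 1 and 2), and Timp1, an X-linked inhibitor of matrix proteases, 7.82, 7.94 and 8.10 against 8.46, 8.10 and 8.26 (0.32 ± 0.10). Fos, an immediate early gene, measured 5.72, 5.82 and 5.69 against 6.69, 6.19 and 5.86 (0.50 ± 0.21, or 0.28 without replicate 1 and 0.12 without replicates 1 and 2). Dct, an enzyme of pigment cell precursors, measured 5.62, 5.63 and 5.81 against 6.51, 6.34 and 5.55 (0.45 ± 0.22, or 0.26 without replicate 1, 0.74 without replicate 3 and -0.14 without replicates 1 and 2). Limb bud genes were lower for 11 of 14, 1 at an unadjusted p under 0.05 (5.67% of all genes), with a median of -0.10.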
